A study of Mus musculus with 21 samples.

Results

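The Reg genes encode small secreted proteins of the C-type lectin-like family, and 5 of them are described here in sorted mouse Paneth cells: Reg1, Reg3a, Reg3b, Reg3g and Reg4. They were chosen by name from a table of 55414 gene identifiers, and all 5 were among the 13070 genes with enough counts to be tested. The question was which of them follow the microbial state of the gut in the way Reg3b and Reg3g do. The 21 bulk RNA-seq libraries came from Paneth cells of the small intestine of mice. C57BL/6J is the strain named in the study. For 7 weeks the drinking water was either Milli-Q, which is purified, or held 200 mM ZnSO4. They were kept specific pathogen free (SPF), were SPF mice with broad spectrum antibiotics during the last 3 weeks, or were germ-free. The groups were SPF mice on Milli-Q water (n = 3), SPF mice on zinc water (n = 3), antibiotics-treated mice on Milli-Q water (n = 4) and on zinc water (n = 4), germ-free mice on Milli-Q water (n = 3) and germ-free mice on zinc water (n = 4). No age, sex or source of the germ-free mice was found in the labels or methods used. The antibiotics groups had been colonised before treatment, and the germ-free groups had not.

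Reg3g and Reg3b are bactericidal lectins of the small intestine: Reg3g binds the peptidoglycan of Gram-positive bacteria and Reg3b also acts on Gram-negative bacteria. Epithelial cells, Paneth cells included, make them after microbial signals that pass through Toll-like receptors and Myd88, and through interleukin-22 and Stat3. Reg3a is a less studied gene of the same subgroup, Reg1 was first known from the exocrine pancreas and from regenerating tissue, and Reg4 is a more distant relative that marks secretory cells of the crypt.

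Of the 5 genes, 4 lie in a cluster of 6 Reg genes that spans 98.2 kb of chromosome 6 in GRCm39. These are Reg3b (ENSMUSG00000071356, chr6:78347640-78350455, + strand), Reg3a (ENSMUSG00000079516, chr6:78357692-78360810, +), Reg1 (ENSMUSG00000059654, chr6:78399694-78405828, +) and Reg3g (ENSMUSG00000030017, chr6:78443246-78445859, - strand). Reg4 (ENSMUSG00000027876, chr3:98129468-98144066, +) stands alone on chromosome 3. No annotated gene overlaps any of the 5, and at least 98.5% of the 60-base stretches of each longest transcript occurred in no other gene, so that few reads could be shared between them. The 2 remaining cluster genes, Reg2 and Reg3d, were close to absent: Reg2 had 2 counts in 1 library and Reg3d 5 counts over 4 libraries.

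The 250 bases before the RefSeq start are shown for the 2 lectins that fell in both microbe-depleted contexts and, as a contrast, for Reg4, which did not fall. They were read from the RefSeq table and placed in GRCm39. The windows are chr6:78347618-78347867 (+) for Reg3b, chr6:78445858-78446107 (-) for Reg3g and chr3:98129222-98129471 (+) for Reg4. Capitals mark every match, on either strand, to the STAT palindrome TTCNNNGAA, to the metal response element core TGCACNC or TGCGCNC, or to the TATA box TATAAA.
Reg3b: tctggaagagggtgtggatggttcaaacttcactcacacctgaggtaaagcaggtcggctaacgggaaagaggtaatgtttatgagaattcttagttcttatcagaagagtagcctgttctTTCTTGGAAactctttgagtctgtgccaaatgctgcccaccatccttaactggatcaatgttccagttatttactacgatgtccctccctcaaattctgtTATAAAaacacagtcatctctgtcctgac
Reg3g: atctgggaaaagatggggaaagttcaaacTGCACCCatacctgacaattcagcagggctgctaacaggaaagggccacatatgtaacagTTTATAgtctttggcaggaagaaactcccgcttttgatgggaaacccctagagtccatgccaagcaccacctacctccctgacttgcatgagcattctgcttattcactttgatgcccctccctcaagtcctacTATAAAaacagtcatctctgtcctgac
Reg4: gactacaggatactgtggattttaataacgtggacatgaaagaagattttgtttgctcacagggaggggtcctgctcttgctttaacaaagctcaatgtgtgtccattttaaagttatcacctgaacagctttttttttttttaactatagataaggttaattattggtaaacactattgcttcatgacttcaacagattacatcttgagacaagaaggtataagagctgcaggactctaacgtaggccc
The Reg3b and Reg3g windows were 68.4% identical in a global alignment, against 43.9 to 50.0% for the other 9 pairs of the 5 genes. Both carried TATAAA shortly before the start, as did Reg1 among the other members, and 12.4% of all 32851 promoters in the RefSeq table held it in such a window. The palindrome occurred in Reg3b among the members (7.02% of all promoters) and TGCACNC in Reg3g (10.4%), while TGCGCNC occurred in none of them (12.5%). The Reg4 window held no match. These are matches of letters, with no binding measured. The GENCODE start of Reg3b lies 228 bases before the RefSeq start, so most of the Reg3b window is inside the longer gene model. That distance was 2 bases for Reg3g and 4 bases for Reg4.

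Total counts per library were between 9888174 and 16896714, with a median of 12936001. All 7 Paneth cell markers were tested and were high, with a summed level of 193776 to 991092 CPM (counts scaled to a library size of 1 megaread). The library sizes were adjusted by TMM factors, which correct for a few very abundant genes. The factors were 0.522 to 0.834 in germ-free libraries and 0.996 to 1.49 in the others, and the 28 Defa genes (the α-defensins) took 39.3 to 44.5% and 24.1 to 36.4% of counts in these. Of other cell types, 8 enterocyte markers summed to 148 to 1529 CPM and 5 stromal markers to at most 0.321 CPM. The 8 immune markers summed to 254 to 297 CPM after antibiotics on Milli-Q water, against 20.2 to 60.5 CPM in SPF mice on that water, with S100a8 and S100a9 at 0 counts in both groups. Of the 4 with enough counts to be tested, 0 had an adjusted p under 0.05 by edgeR between these groups, beside 0.199% of all genes. SPF zinc replicate 1 stood apart, with 6228 counts of Xist against 0 to 34 in the other libraries. Values of the Reg genes are therefore given with and without it where a result rests on it. Values of markers and pathway lists include it. The study describes its samples as cells from single mice, and replicates of a group differed by a chi-square of at least 7.97 per gene.

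Per kilobase of the longest transcript, Reg4 had the highest level in the SPF Milli-Q group, at 1731 ± 678 CPM per kb (SD, n = 3). Reg3g followed at 207 ± 32.2 CPM per kb, or 557 ± 86.6 on its longest protein-coding transcript, which has 778 bases in place of 2089. Reg3b stood at 97.8 ± 14.2, Reg1 at 3.65 ± 1.76 and Reg3a at 1.12 ± 0.553 CPM per kb (SD, n = 3 each). After antibiotics on the same water the order was the same, but the steps were not. Reg4 stood at 1406 ± 129 CPM per kb, Reg3g at 8.95 ± 1.29, Reg3b at 2.55 ± 1.08, Reg1 at 1.57 ± 1.18 and Reg3a at 0.332 ± 0.209 (SD, n = 4 each). The distance between Reg4 and the bactericidal Reg3 genes was thus far wider without the usual bacteria, while Reg3b came close to Reg1.

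**Figure D1:**
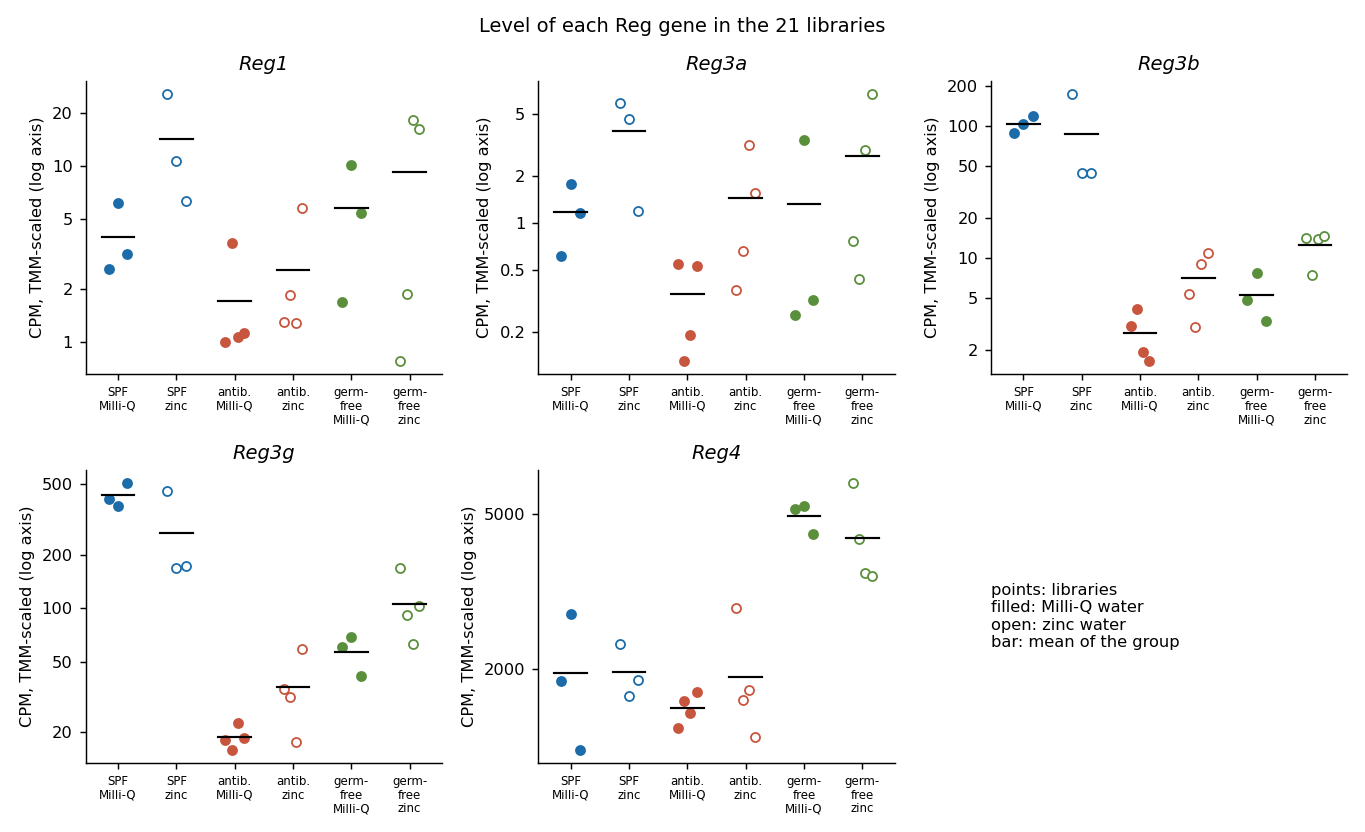
Level of each Reg gene in CPM (TMM-scaled, log axes) in the 21 libraries by group, with filled points for Milli-Q water, open points for zinc water and a bar at the mean. Reg3b is highest in the 6 SPF libraries, of which the lowest for Reg3g (168 CPM) is met by germ-free zinc replicate 1, whereas Reg4 is highest in the 7 germ-free libraries, between 3465 and 6015 CPM.

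Antibiotics against SPF mice on Milli-Q water asks what a short depletion of bacteria changes in colonised mice. Reg3b and Reg3g fell, and Reg1, Reg3a and Reg4 did not pass the test. These 2 of 5 genes were called (adjusted p under 0.05) in a comparison that called 0.199% of all genes. Reg3g had 414, 377 and 508 CPM in SPF replicates 1 to 3, and 18.0, 15.9, 22.4 and 18.5 CPM in antibiotics replicates 1 to 4. Every antibiotics library lay far below every SPF library. Reg3g fell by 4.53 ± 0.38 on the log2 scale (SE), a 23.1-fold difference, with an adjusted p of 2.04e-07 (edgeR's quasi-likelihood test, Benjamini-Hochberg). Reg3b had 88.9, 103 and 119 CPM in the SPF libraries and 3.05, 4.13, 1.92 and 1.65 CPM in the antibiotics libraries. The groups were again well apart, with a log2 fold change of -5.29 ± 0.46 (SE), 39.1-fold, and an adjusted p of 3.14e-07 in the same test. Neither call depended on a single library. With no filter on low counts, where the SE of Reg3b was 0.19 in place of 0.46, Reg1 (-1.27, adjusted p 0.000788) and Reg3a (-1.70, adjusted p 0.0328) were also called. In bulk samples, fewer cells that make a transcript and less transcript per cell cannot be told apart.

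Germ-free against SPF mice on Milli-Q water asks the same of mice that never carried bacteria, and it shares the SPF libraries with the comparison above. Here 3 of 5 genes were called where 24.2% of all genes were: Reg3b and Reg3g fell, and Reg4 rose. Reg3g had 60.1, 68.8 and 41.3 CPM in the germ-free libraries, all below the SPF libraries, and a log2 fold change of -2.93 ± 0.40 (SE, 7.64-fold, adjusted p 3.12e-05 by edgeR). Reg3b had 4.79, 7.70 and 3.32 CPM, also without overlap, and a log2 fold change of -4.32 ± 0.52 (SE, 20.0-fold, adjusted p 9.95e-06). On the TMM scale, germ-free libraries thus held more Reg3g than antibiotics libraries did. In the direct comparison of germ-free with antibiotics mice on Milli-Q water, Reg3g was 1.60 ± 0.35 log2 units higher (SE, 3.02-fold, adjusted p 0.00278 by edgeR), with no overlap. Reg3b differed by 0.96 log2 units (95% interval -0.15 to 2.07, adjusted p 0.204). In that comparison 2 of 5 genes were called, Reg3g and Reg4, beside 22.2% of all genes. Scaled by library totals, the Reg3g value was 0.56 (adjusted p 0.102) and the median over all genes was -1.05. By totals the Reg3g groups overlapped, with 27.3 in germ-free replicate 3 and 27.6 in antibiotics replicate 3.

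On zinc water the same contexts were compared with other libraries. Antibiotics against SPF called 3 of 5 genes, beside 8.97% of all genes: Reg3b, Reg3g and Reg1 fell. Reg3g had 461, 168 and 172 CPM in the SPF zinc libraries and 35.0, 31.7, 17.5 and 58.6 CPM after antibiotics, a log2 fold change of -2.90 ± 0.35 (SE, adjusted p 5.32e-05 by edgeR). Reg3b had 174, 43.8 and 44.1 CPM in the former and 5.33, 2.98, 8.96 and 10.9 CPM in the latter, with a log2 fold change of -3.64 ± 0.43 (SE, adjusted p 3.74e-05). Neither gene's groups overlapped, though SPF zinc replicate 1 was well above the other 2 SPF libraries for both. Without it the values were -2.25 for Reg3g and -2.65 for Reg3b, with adjusted p-values of 0.00076 and 0.000248.

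Germ-free against SPF on zinc water also called 3 of 5 genes, Reg3b and Reg3g lower and Reg4 higher, beside 5.85% of all genes. Reg3b had 14.1, 7.43, 13.9 and 14.7 CPM in germ-free zinc libraries, below every SPF zinc library, with a log2 fold change of -2.80 ± 0.42 (SE, adjusted p 0.00171 by edgeR). Without SPF zinc replicate 1 it was -1.82 (adjusted p 0.00891). Reg3g had 168, 91.1, 62.5 and 103 CPM there and a log2 fold change of -1.34 ± 0.34 (SE, adjusted p 0.0241). Its groups met, since germ-free zinc replicate 1 reached the level of the lowest SPF library. This Reg3g call did not hold without SPF zinc replicate 1 (-0.69, adjusted p 0.215), SPF zinc replicate 2 (0.0524), germ-free zinc replicates 2 (0.0681) or 3 (0.0597), and in a fit of those 2 groups alone (0.0965). Between germ-free and antibiotics mice on zinc water, Reg3g was 1.57 ± 0.33 log2 units higher (SE, adjusted p 0.00292) and did not overlap. By library totals it was 0.76 (adjusted p 0.024), and the groups overlapped, with 69.1 in antibiotics zinc replicate 4 and 48.7 to 87.6 in germ-free libraries. Reg3g and Reg4 were the 2 of 5 genes called there, beside 13.2% of all genes, and Reg3b differed by 0.84 (95% interval -0.03 to 1.71, adjusted p 0.193).

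**Figure D2:**
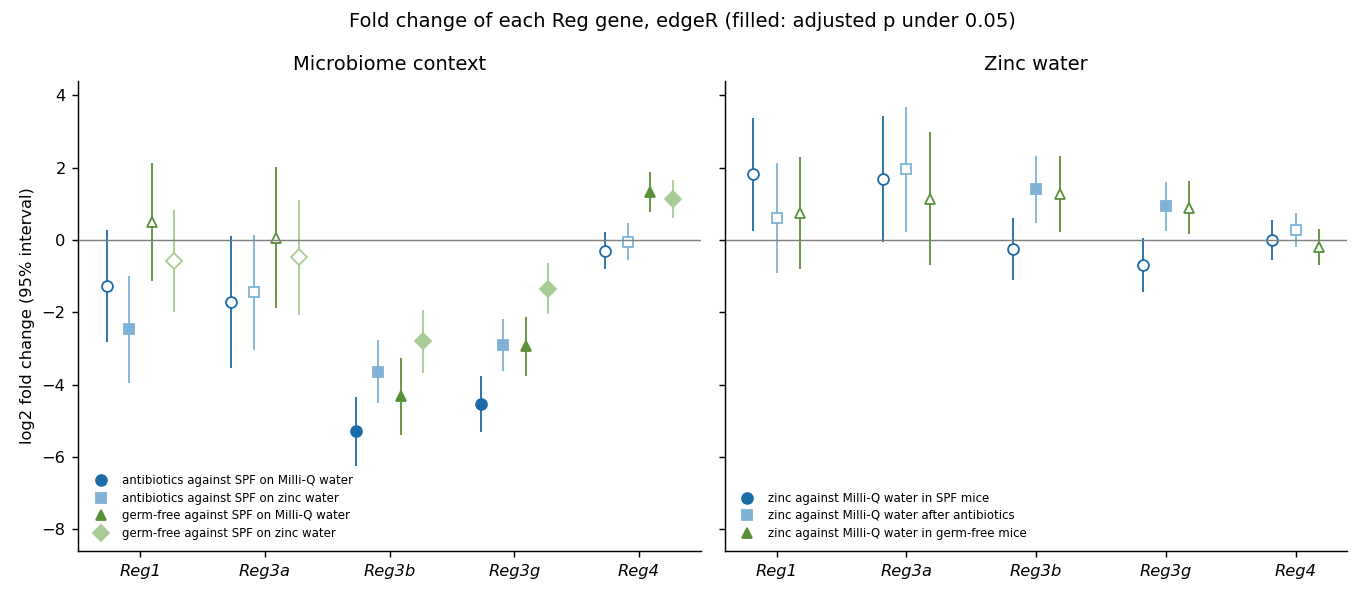
Log2 fold change of each Reg gene with its 95% interval, for the microbiome contexts against SPF on the left and for zinc against Milli-Q water on the right, with filled symbols where the adjusted p of edgeR's test is under 0.05. Reg3b and Reg3g lie below 0 in all 4 context comparisons, from -5.29 to -1.34, and Reg4 is called in the germ-free comparisons, at 1.34 and 1.14.

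Reg4 had a different pattern. It had 1861, 2768 and 1243 CPM in the SPF Milli-Q group, and 1411, 1660, 1542 and 1748 CPM after antibiotics, so these groups overlapped. The difference was -0.30 log2 units (95% interval -0.81 to 0.21, adjusted p 0.772 by edgeR) and on zinc water -0.04 (-0.55 to 0.47, adjusted p 0.934). Both intervals lie far from the falls of Reg3b and Reg3g. In germ-free mice Reg4 had 5158, 5241 and 4452 CPM on Milli-Q water and 6015, 4333, 3525 and 3465 CPM on zinc water. Every one of these 7 libraries lay above all 14 others on this scale, of which the highest, antibiotics zinc replicate 1, had 2880 CPM. Scaled by library totals alone the groups overlapped, with 2746 to 3345 in germ-free libraries, 3803 in SPF Milli-Q replicate 2 and 3122 in antibiotics zinc replicate 1. Against SPF, Reg4 rose by 1.34 ± 0.27 log2 units on Milli-Q water (SE, 2.53-fold, adjusted p 0.00116) and by 1.14 ± 0.25 on zinc water (SE, 2.20-fold, adjusted p 0.0124). Against antibiotics the rises were 1.64 ± 0.25 and 1.18 ± 0.23 log2 units (SE, adjusted p 8.11e-05 and 0.00171). The call on zinc water was lost without SPF zinc replicate 2 (0.103) or 3 (0.0684) and in a fit of those 2 groups alone (0.0609).

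The size of the Reg4 rise varied with the scaling. By library totals it was 0.36 log2 units on Milli-Q water (adjusted p 0.156) and 0.48 on zinc water (adjusted p 0.0654), while all genes had medians of -0.99 and -0.61. Relative to that median it was 1.35 and 1.09. Against antibiotics, library totals gave 0.60 for Reg4 on Milli-Q water (adjusted p 0.0121) and 0.40 on zinc water (adjusted p 0.0751), with medians of -1.05 and -0.74. Against SPF, totals that leave out the Defa genes gave 0.71 on Milli-Q water and 0.62 on zinc water (adjusted p 0.0102 and 0.0302 by edgeR). This alternative was added after seeing the data. The direction was upward in each of these scalings, and Reg3b and Reg3g fell in each of them. On the TMM scale, Paneth cell markers moved with Reg4. In germ-free mice on Milli-Q water 6 of 7 rose and 1, Mptx2, fell (list median 1.39), where 24.2% of all genes were called. Their sum was 768912 to 772449.9 CPM there against 240708 to 379629 CPM in SPF mice. On zinc water 4 of the 7 rose and Mptx2 fell, beside 5.85% of all genes called. Mptx2 was also the 1 of 7 called after antibiotics, beside 0.199% of all genes on Milli-Q and 8.97% on zinc water. It fell by 1.64 ± 0.28 and 1.49 ± 0.28 log2 units there (SE, adjusted p 0.00728 and 0.00336 by edgeR). The 10 enteroendocrine markers, which mark another secretory cell that makes Reg4, summed to 58.0 to 85.7 CPM in germ-free and 121 to 211 CPM in the SPF Milli-Q group. The 5 goblet cell markers, of a secretory lineage that also makes Reg4, summed to 4102 to 5376 CPM in germ-free and 1980.3 to 3888 CPM in the SPF Milli-Q group, with 1 of 5 higher and 1 lower. After antibiotics, with no Reg4 call, the sum was 3473 to 4518 CPM. These marker calls and sums are TMM-scaled and were not repeated by library totals, under which the Reg4 rise was smaller. The part of these cells in the Reg4 difference was not tested.

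**Figure D3:**
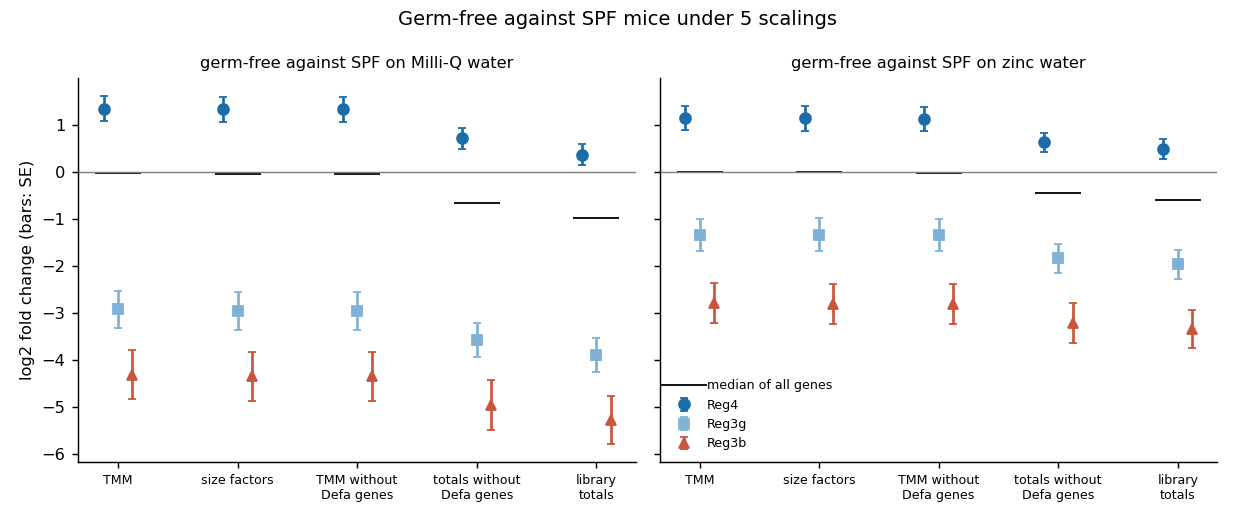
Log2 fold change of Reg4, Reg3g and Reg3b (bars: SE) in germ-free against SPF mice on each water under 5 scalings of the libraries, with a dash at the median of all genes. Reg4 stays above 0, from 1.34 to 0.36 on Milli-Q water, while the median of all genes goes from -0.03 to -0.99.

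Reg1 and Reg3a were low and scattered. Over all 21 libraries Reg1 had 1509 counts and Reg3a 464 counts, against 42596 for Reg3g and 682051 for Reg4, so their values are the least precise. Reg1 had 2.59, 6.13 and 3.14 CPM in the SPF Milli-Q group, 1.00, 3.61, 1.06 and 1.12 CPM after antibiotics and 1.68, 10.1 and 5.35 CPM in germ-free mice. All 3 groups overlapped. The log2 differences from SPF were -1.27 after antibiotics (95% interval -2.83 to 0.29, adjusted p 0.683 by edgeR) and 0.50 in germ-free mice (-1.14 to 2.14, adjusted p 0.681). On zinc water Reg1 had 25.4, 10.6 and 6.33 CPM in SPF mice, 1.30, 1.85, 1.28 and 5.75 CPM after antibiotics and 0.775, 1.86, 18.2 and 16.1 CPM in germ-free mice.

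The antibiotics and SPF zinc groups did not overlap for Reg1, which fell by 2.47 ± 0.72 log2 units there (SE, 5.54-fold, adjusted p 0.034 by edgeR). It missed the threshold without SPF zinc replicate 1 (-1.74, adjusted p 0.18), SPF zinc replicate 2 (0.0769) or antibiotics zinc replicates 1 (0.0979), 2 (0.0717) or 3 (0.0784), and by library totals with all genes (0.0639) or without the Defa genes (0.0681). In the same comparison 7 of 8 enterocyte markers fell, with a median of -3.35 over the list and 0.00 over all genes. Sis, a brush border disaccharidase, had a log2 fold change of -2.10 ± 0.38 and Apoa4, an apolipoprotein, of -4.50 ± 1.02 (SE, adjusted p 0.00319 and 0.0103). The enterocyte sum was 674 to 1341 CPM in SPF and 196 to 371 CPM in antibiotics libraries. Germ-free mice on zinc water held both low and high Reg1 libraries, and their difference from SPF was -0.57 (95% interval -1.99 to 0.84, adjusted p 0.656). Against antibiotics mice, germ-free mice had Reg1 higher by 1.77 on Milli-Q water (0.15 to 3.40, adjusted p 0.108 by edgeR). On zinc water it was higher by 1.90 (0.46 to 3.33, adjusted p 0.0707). The groups overlapped on both waters, and limma-voom called Reg1 on Milli-Q water alone. By library totals the values were 0.74 and 1.27 (adjusted p 0.376 and 0.107 by edgeR).

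Reg3a, although in the Reg3 subgroup, was called in none of the 6 context comparisons by edgeR, DESeq2 or limma-voom on the filtered genes. With no filter edgeR called it lower after antibiotics on both waters (adjusted p 0.0328 and 0.0178) and higher in germ-free than in antibiotics mice on Milli-Q water (1.69, adjusted p 0.0192). It had 0.613, 1.79 and 1.16 CPM in the SPF Milli-Q group, 0.551, 0.131, 0.192 and 0.535 CPM after antibiotics, and 0.259, 3.40 and 0.321 CPM in germ-free mice. The antibiotics libraries lay below the SPF libraries without overlap, with a difference of -1.71 log2 units (95% interval -3.54 to 0.11, unadjusted p 0.0642, adjusted p 0.639 by edgeR), so a fall of the size seen for Reg3g lies outside this interval and a smaller one does not. The germ-free value was 0.06 (-1.89 to 2.02, adjusted p 0.97) and rested on replicate 2, without which it was -2.01. On zinc water Reg3a had 5.87, 4.69 and 1.19 CPM in SPF mice, 0.372, 0.669, 3.17 and 1.57 CPM after antibiotics and 0.775, 0.437, 2.95 and 6.70 CPM in germ-free mice. The groups overlapped, and the differences from SPF were -1.45 (-3.04 to 0.14, adjusted p 0.236) and -0.48 (-2.07 to 1.11, adjusted p 0.754).

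The 6 libraries with the most Reg1 were the 6 with the highest sum of enterocyte markers. Of the 6 highest for Reg3a, 5 were among them, against 3 for Reg3b, 3 for Reg3g and 2 for Reg4. These libraries were SPF zinc replicates 1, 2 and 3 (1341, 1101 and 674 CPM of enterocyte markers), germ-free Milli-Q replicate 2 (697 CPM) and germ-free zinc replicates 3 and 4 (669 and 1529 CPM). The remaining 15 libraries had 148 to 415 CPM. Replicates of one group were divided by it: germ-free zinc replicates 1 and 2, at 269 and 207 CPM of markers, had 0.775 and 1.86 CPM of Reg1, while replicates 3 and 4 had 18.2 and 16.1 CPM. The part of these cells in the Reg1 and Reg3a values was not tested. Of 6 pancreatic acinar markers, Cela2a, Cela3b and Pnlip had 0 counts in every library, and Clps, the colipase, was the only one with enough counts to be tested. The sum of these markers was 4867 to 5455 CPM in germ-free and 1233 to 1914 CPM in SPF Milli-Q libraries, and Clps rose against SPF by 1.75 on Milli-Q water and 1.06 on zinc water and against antibiotics by 1.80 and 1.40, the comparisons in which Reg4 rose.

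**Figure D4:**
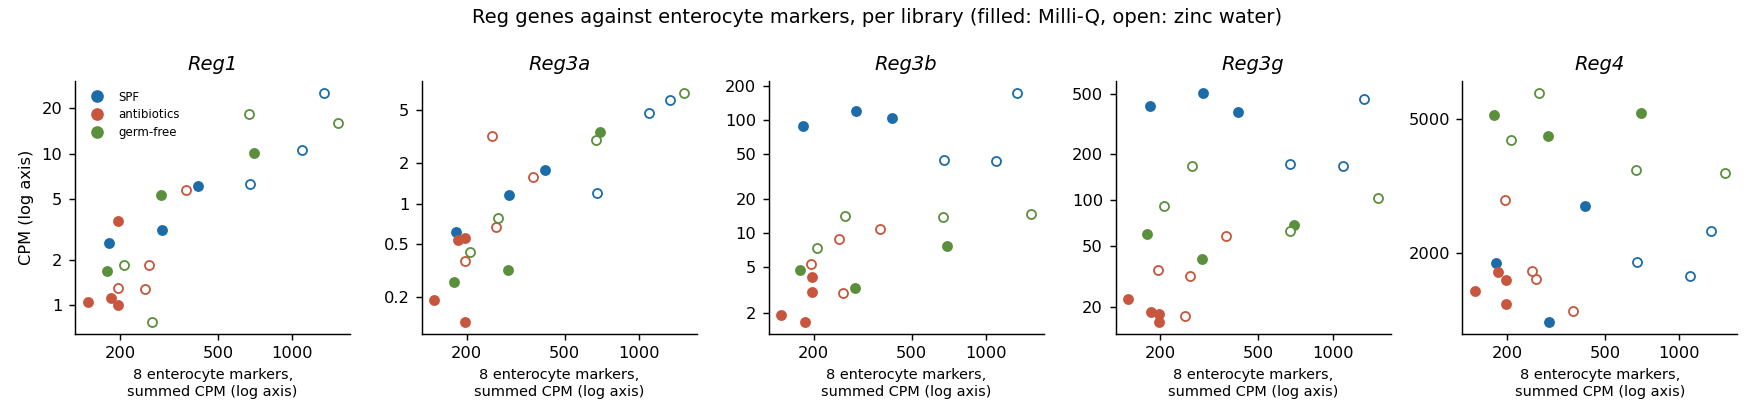
CPM of each Reg gene against the summed CPM of 8 enterocyte markers in the same library, both on log axes, with a point for each of the 21 libraries coloured by microbiome context. Reg1 and Reg3a are high in the libraries at the right, whereas Reg3b and Reg3g are divided by context, with the 6 SPF libraries on top for Reg3b, and Reg4 has its 7 germ-free libraries on top.

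Ratios of counts within a library are free of the scaling between libraries, and were used to test whether a gene changed by another factor than Reg3g. The log2 ratio of Reg4 to Reg3g was 2.11 ± 0.79 in the SPF Milli-Q group (SD, n = 3), 6.41 ± 0.27 after antibiotics (SD, n = 4) and 6.47 ± 0.25 in germ-free mice (SD, n = 3). On zinc water it was 3.04 ± 0.62, 5.81 ± 0.95 and 5.40 ± 0.35 (SD, n = 3, 4 and 4). No SPF library (1.29 to 3.45) reached the libraries of the antibiotics (4.51 to 6.70) or germ-free mice (5.07 to 6.75). Averaged over the waters, the ratio was 3.54 log2 units higher after antibiotics and 3.36 higher in germ-free mice. The p-values were 0.000816 and 0.00143, the smallest possible in a two-sided exact permutation test within waters. Adjusted over the 8 such tests, both were 0.00571.

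Reg3b and Reg3g, alike in direction, did not move by an equal factor in germ-free mice. The log2 ratio of Reg3b to Reg3g was -2.07 ± 0.17 in SPF (SD, n = 3) and -3.47 ± 0.27 in germ-free mice (SD, n = 3) on Milli-Q water, and -1.77 ± 0.31 (n = 3) and -3.04 ± 0.69 (n = 4) on zinc water. SPF libraries ranged from -2.22 to -1.41 and germ-free libraries from -3.63 to -2.16, so a single germ-free library came into the SPF range. The mean difference was -1.33, so that Reg3b fell 2.52-fold more than Reg3g (exact permutation p 0.00286, adjusted 0.00762). After antibiotics it was -0.70 (libraries from -3.53 to -0.96, exact permutation p 0.0792, adjusted 0.106).

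Reg1 and Reg3a rose relative to Reg3g after antibiotics, by 1.76 and 2.02 log2 units (exact permutation p 0.00653 and 0.0122, adjusted 0.0131 and 0.0196). The Reg1 difference was 3.19 on Milli-Q water and 0.34 on zinc water, where Reg1 itself had fallen. In germ-free mice the differences were 1.58 and 1.35 (exact permutation p 0.154 and 0.151, adjusted 0.154 both). Here Reg1 ranged from -7.59 to -1.78 over the germ-free libraries, wider than the SPF range of -7.33 to -3.98. Set against Reg3b in place of Reg3g, the germ-free differences were 2.91 and 2.69 (adjusted p 0.0196 and 0.0114 in the exact permutation test).

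**Figure D5:**
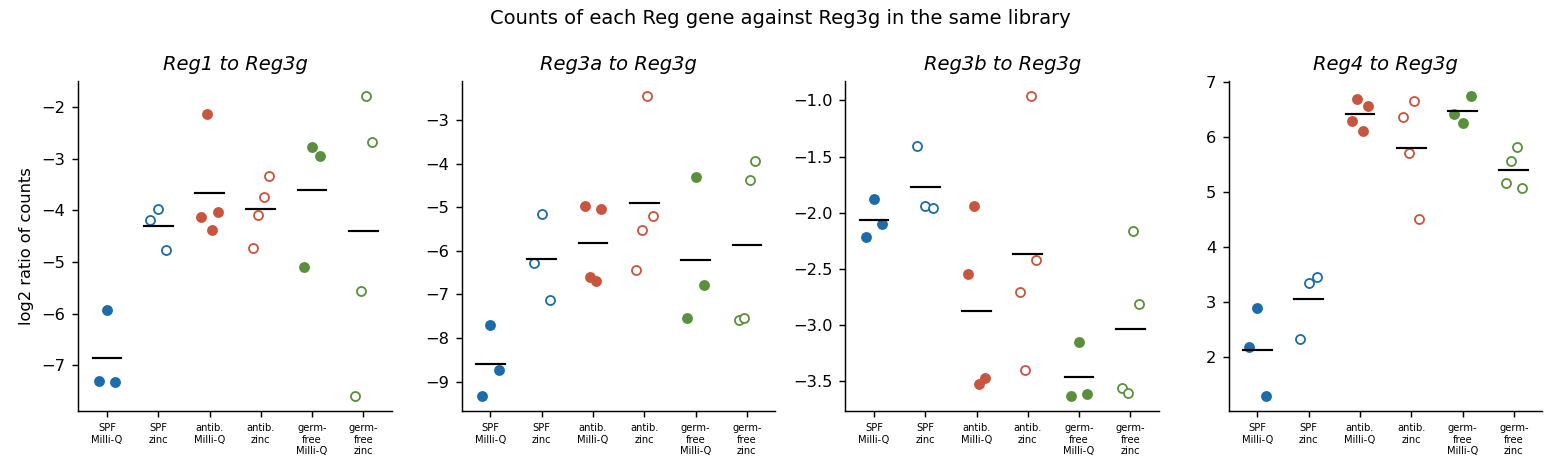
Log2 ratio of the counts of Reg1, Reg3a, Reg3b and Reg4 to those of Reg3g in each library by group, with a bar at the mean. The 6 SPF libraries lie lowest for Reg4 to Reg3g, at 1.29 to 3.45, and the 15 others start at 4.51.

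Zinc water was compared with Milli-Q water in each context. In SPF mice 0 of 5 Reg genes were called by edgeR, DESeq2 or limma-voom, beside 0.138% of all genes in edgeR, and 1 of the 5, Reg1, had an unadjusted p under 0.05 in edgeR (0.0244, adjusted 0.842). The log2 differences were 1.82 for Reg1 (95% interval 0.26 to 3.38), 1.69 for Reg3a (-0.04 to 3.43), -0.25 for Reg3b (-1.10 to 0.61), -0.70 for Reg3g (-1.45 to 0.06) and 0.01 for Reg4 (-0.54 to 0.55). With no filter on low counts edgeR called 3 of them, Reg1 and Reg3a higher (adjusted p 5.01e-08 and 0.0297) and Reg3g lower (adjusted p 0.00227). The differences of Reg3b and Reg3g depended on SPF zinc replicate 1, without which Reg3b was at -1.23 and Reg3g at -1.35 (adjusted p 0.67 and 0.461). Without it Reg1 was at 1.09 ± 0.82 and Reg3a at 1.29 ± 0.94 (SE, adjusted p 0.999 for both by edgeR). The fit with no filter kept this library.

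After antibiotics, 2 of 5 genes were called, beside 21.7% of all genes: Reg3b rose by 1.40 ± 0.45 (SE, adjusted p 0.0295 by edgeR) and Reg3g by 0.93 ± 0.33 log2 units (SE, adjusted p 0.0461). In the same comparison the immune marker sum went from 254 to 297 CPM on Milli-Q water to 10.6 to 197 CPM on zinc water, and the enterocyte marker Sis rose by 1.42 (adjusted p 0.0127). Of the 4 immune markers tested 0 were called there (list median -0.44). The part of these cells was not tested. In both lectins the zinc and Milli-Q libraries overlapped, with Reg3g at 17.5 CPM in zinc replicate 3. DESeq2 called Reg3b alone and limma-voom neither. The Reg3b call was lost without antibiotics Milli-Q replicates 3 (0.0831) or 4 (0.074) or antibiotics zinc replicates 3 (0.0667) or 4 (0.115). The Reg3g call was lost in 9 of 21 fits that left out a library, with adjusted p from 0.0509 to 0.227. These were the fits without any of the 4 antibiotics Milli-Q libraries, antibiotics zinc replicates 1, 2 or 4, replicate 1 of germ-free Milli-Q or replicate 2 of germ-free zinc. Even the higher of the zinc values stayed far below SPF mice: Reg3g was at 35.7 ± 17.1 CPM after antibiotics on zinc water (SD, n = 4) and at 433 ± 67.4 CPM in the SPF group on Milli-Q water (SD, n = 3).

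In germ-free mice zinc called 0 of 5 genes in edgeR and DESeq2 and 1, Reg3g, in limma-voom (0.90, adjusted p 0.0411), beside 11.4% of all genes in edgeR. Reg3b was at 1.27 (95% interval 0.22 to 2.32, unadjusted p 0.0197, adjusted 0.0991) and Reg3g at 0.90 (0.16 to 1.64, unadjusted p 0.0191, adjusted 0.0975), the 2 members with an unadjusted p under 0.05 in edgeR. The Reg3b call was made without SPF zinc replicate 1 (adjusted p 0.0388), and both calls with no filter on low counts (adjusted p 4.37e-08 for Reg3b and 1.68e-06 for Reg3g). Reg4 passed the test for zinc in no context, at 0.27 after antibiotics (-0.20 to 0.74) and -0.19 in germ-free mice (-0.70 to 0.32).

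Averaged over the 3 contexts, 2 of 5 genes were called, beside 21.9% of all genes. Reg3a rose by 1.60 ± 0.49 log2 units (SE, adjusted p 0.0243 by edgeR), which missed the threshold without replicate 1 of SPF zinc (0.0548) or replicate 3 of germ-free Milli-Q (0.0524). Reg3b rose by 0.81 ± 0.26 (SE, adjusted p 0.0321), a call lost without replicate 1 of either SPF group, replicate 3 of antibiotics Milli-Q, replicate 4 of antibiotics zinc, replicates 1 or 3 of germ-free Milli-Q, or replicate 3 of germ-free zinc, with adjusted p from 0.0502 to 0.108. Limma-voom called neither. Reg1 was at 1.06 ± 0.43 (SE, adjusted p 0.0786) and was called without antibiotics Milli-Q replicate 2 (0.0465) or germ-free zinc replicates 1 (0.0399) or 2 (0.0469). In the same average 4 of 8 enterocyte markers rose (Sis 1.88 ± 0.25, Alpi 1.78 ± 0.43, SE), with a list median of 1.14 against -0.01 over all genes, and their part in the Reg3a value was not tested.

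Whether zinc acted differently between contexts was tested directly. Against SPF mice, the zinc effect on Reg3g was 1.63 ± 0.49 log2 units higher after antibiotics and 1.60 ± 0.51 higher in germ-free mice (SE, unadjusted p 0.00301 and 0.00464, adjusted 0.119 and 0.242 by edgeR). For Reg3b the differences were 1.65 ± 0.61 and 1.52 ± 0.66 (SE, unadjusted p 0.0127 and 0.0295, adjusted 0.174 and 0.33). Without SPF zinc replicate 1 they were 2.63 and 2.51 for Reg3b (adjusted p 0.108 and 0.246) and 2.28 and 2.25 for Reg3g (adjusted p 0.152 and 0.246). These same contrasts say by how much less the depleted mice differed from SPF on zinc than on Milli-Q water. None of the 5 genes was called by edgeR or DESeq2 in either contrast, and edgeR called 0% of all genes in each, with 2418 and 1741 genes at an unadjusted p under 0.05, both lectins among them. Limma-voom called Reg3g in both (adjusted p 0.0467 and 0.0376), and edgeR with no filter on low counts called Reg3b and Reg3g in both. Between germ-free and antibiotics mice 0 of 5 genes were called by any of the 3 tools and 0 had an unadjusted p under 0.05, beside 0.207% of all genes called by edgeR, with Reg3b at -0.13 (95% interval -1.51 to 1.26) and Reg3g at -0.03 (-1.01 to 0.96).

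Over the 6 groups, Reg3g ran from SPF on Milli-Q water through SPF on zinc water, germ-free on zinc water, germ-free on Milli-Q water and antibiotics on zinc water to antibiotics on Milli-Q water. Each neighbour in this order overlapped the next. Reg3b had the same first 3 groups, then antibiotics on zinc water, germ-free and antibiotics on Milli-Q water, and the gap between SPF on zinc water and germ-free on zinc water was the only one between neighbours with no overlap. Reg4 began with the germ-free groups on Milli-Q and zinc water, followed after a gap by the 4 others, which overlapped. Reg1 and Reg3a both began with SPF and then germ-free mice on zinc water and ended with antibiotics on Milli-Q water. These orders are of TMM-scaled CPM. By library totals germ-free on Milli-Q water came below antibiotics on zinc water for Reg3g (36.5 and 42.4) and below antibiotics on Milli-Q water for Reg3b (3.38 and 3.58). For Reg1 every neighbour overlapped the next, and for Reg3a every one but SPF and antibiotics on Milli-Q water.

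The genes with the closest pattern were sought among the 13070 by Pearson's r of log-CPM over the 21 libraries, which share groups and scaling and so give a description only. Reg3b was closest to Reg3g (r = 0.925), then to C1qtnf1 (0.817) and Mptx2 (0.801). Reg3g was closest to Reg3b, Cfi, which encodes complement factor I (0.902), and Mptx2, a Paneth cell pentraxin (0.884). Reg1 was closest to Slc15a1, the intestinal peptide transporter (0.911), Adh6a (0.907) and Treh, the brush border trehalase (0.907), and genes close to Reg3a included Mogat2, an enzyme of dietary fat uptake (0.900), and Ces2e (0.885). Reg4 was closest to Dap (0.965), Sqstm1, an autophagy receptor (0.953), and Glb1, the lysosomal β-galactosidase (0.949). Between members, r was 0.722 for Reg1 and Reg3a, and -0.098 for Reg3b and Reg4.

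Genes of the signalling upstream of Reg3b and Reg3g were examined as lists. After antibiotics on Milli-Q water 0 of 10 tested genes of IL-22 and STAT3 signalling, 0 of 15 of bacterial sensing and 0 of 9 other epithelial genes induced by microbes were called by edgeR, with 1, 1 and 2 at an unadjusted p under 0.05. Over all genes 0.199% were called there, and 1062 of 13070 had an unadjusted p under 0.05. The list medians were -0.14, -0.18 and -0.08, against -0.01 over all genes. In germ-free mice on Milli-Q water 4 of 10, 4 of 15 and 4 of 9 were called, where 24.2% of all genes were (medians -0.26, -0.49 and -0.93, against -0.03 over all genes). Of the first list 2 rose and 2 fell: Il22ra1, the epithelial subunit of the IL-22 receptor, went from 25.3 to 11.7 CPM (-1.11 ± 0.31, SE, adjusted p 0.0127) and its partner Il10rb from 22.8 to 35.9 CPM (0.65 ± 0.13, adjusted p 0.0011). Of the others all called genes fell, including the sensors Tlr1 (-2.12 ± 0.68) and Nod2 (-2.05 ± 0.68), the goblet cell peptide Retnlb (-5.79 ± 1.63) and the fucosyltransferase Fut2 (-3.70 ± 0.89, all SE, adjusted p 0.0129 to 0.0305 for Retnlb, Tlr1 and Nod2 and 0.00446 for Fut2).

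On zinc water, edgeR called 1 of 10, 1 of 15 and 0 of 9 genes after antibiotics against SPF, beside 8.97% of all genes (1 of the 9 at an unadjusted p under 0.05), Il17ra, a receptor of interleukin-17, by -0.78 ± 0.18 and Nod1 by -0.66 ± 0.19 (SE, adjusted p 0.0127 and 0.0321). In germ-free mice 0 of 10, 2 of 15 and 0 of 9 were called, beside 5.85% of all genes, with 1 of the first and 1 of the last at an unadjusted p under 0.05. Ly96, a part of the lipopolysaccharide receptor, rose by 1.56 ± 0.40 and Myd88 by 0.55 ± 0.16 (SE, adjusted p 0.0238 and 0.0484). Il22, Saa1, Saa2, Saa3 and Lcn2 were too low to be tested. Zinc against Milli-Q water called 0 of 10, 1 of 15 and 1 of 9 genes in SPF mice, with 2, 4 and 7 at an unadjusted p under 0.05. Over all genes 665 of 13070 were at that level there. The list medians in SPF mice were 0.1, -0.16 and -1.23, against -0.02 over all genes. Zinc called 3 of 10, 4 of 15 and 3 of 9 after antibiotics, all lower, and 2 of 10, 2 of 15 and 1 of 9 in germ-free mice. The shares over all genes were 0.138, 21.7 and 11.4%. With zinc water Nos2, which encodes inducible nitric oxide synthase, fell by 3.14 ± 0.60 in SPF mice, 3.40 ± 0.49 after antibiotics and 2.37 ± 0.66 log2 units in germ-free mice (SE, adjusted p 0.0283, 0.000814 and 0.0269 by edgeR). Cd14, a co-receptor for lipopolysaccharide, fell by 1.64 ± 0.33, 1.64 ± 0.28 and 1.13 ± 0.32 (SE, adjusted p 0.0444, 0.0013 and 0.0292). Socs3, a target and inhibitor of Stat3, fell by 1.18 ± 0.29 with zinc after antibiotics (SE, adjusted p 0.00766), where Reg3b and Reg3g were called higher, and the kinase gene Tyk2 fell there too (-0.61 ± 0.15, SE, adjusted p 0.00698). In germ-free mice Il22ra1 rose by 1.15 ± 0.30 with zinc and Jak1, a kinase of the same receptor, by 0.58 ± 0.17 (SE, adjusted p 0.0213 and 0.0292). Extl3, reported as a receptor of Reg proteins, was called in 1 of the 6 context comparisons, 0.36 ± 0.12 higher in germ-free than in antibiotics mice on zinc water (SE, adjusted p 0.0436).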

How the data were processed

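Per the labels, RNA of sorted Paneth cells was made into libraries with a stranded mRNA kit. Whole-number counts of reads per gene were deposited by the authors as 1 table of 21 libraries, all 21 columns of which matched a title in the labels (0 columns without a match). The submitters' processing notes name FastQC, STAR, DESeq2 and the mm39 build. The counting tool, its strand setting and its handling of reads with several matches are not given in the sources used here, so genes with near-identical copies can share counts. Of 55414 identifiers, 54749 matched GENCODE M39, and the unmatched ones held 0.0164% of counts.

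Genes were kept by filterByExpr of edgeR 4.0.16 (R 4.3.3), which left 13070. All 21 libraries entered 1 fit with a mean for each group, TMM normalization and the quasi-likelihood test, with Benjamini-Hochberg adjustment over all tested genes in each of 13 comparisons and a threshold of 0.05. The common dispersion was 0.0369. CPM in the text were scaled by TMM factors, log-CPM used a prior count of 2, and values per kb used GENCODE lengths. The script was tested on simulated data with known changes. Ratios within libraries used counts plus 0.5 and a two-sided exact permutation test within waters. Promoter windows came from RefSeq on GRCm39. Python 3.11.15 was used for the rest.

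The members, the gene lists and the tests were chosen with earlier results of these data known. Genes outside the members were named by rule: for each pathway list and comparison at most the 2 largest rises and 2 largest falls among called genes, markers by list, and for each member the 3 genes with the highest r, of which 1 is not reported here. Alternatives were size factors of the DESeq2 type, library totals, TMM or totals that leave out Defa genes (totals added after seeing the data), limma-voom (limma 3.58.1, sample quality weights), the tool DESeq2 1.42.0, no filter, a filter of 10 counts in 10 libraries, replicate number as a block, fits of only the groups compared, and each library left out.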

Additional observations from a re-analysis of the deposited data

Results flagged for a closer look

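In groups of 4 libraries, a library was singled out where its gap to the nearest other exceeded 0.829 of the group's range (Dixon's limit at 95%). This was tested on 15 sets of values and found 3, where chance gives about 1 in 20. Reg1 had 3.61 CPM in antibiotics Milli-Q replicate 2 against 1.00 to 1.12 CPM in the other 3 libraries (gap over range 0.955). Reg1 had 5.75 CPM in antibiotics zinc replicate 4 against 1.28 to 1.85 CPM in the others (0.872). Reg3b had 7.43 CPM in germ-free zinc replicate 2 against 13.9 to 14.7 CPM in the others (0.897).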

How the results depend on the processing

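The falls of Reg3b and Reg3g against SPF mice on Milli-Q water and of Reg3b on zinc water kept their direction and their call under every alternative tried, and the rise of Reg4 kept its direction. Low counts limit Reg1 and Reg3a, and 3 or 4 libraries a group limit all. With no filter on low counts, the members called became 4 for antibiotics against SPF on Milli-Q water, 5 and 4 for germ-free against antibiotics on Milli-Q and zinc water, 3, 2 and 4 for zinc in SPF mice, in germ-free mice and on average, and 2 and 2 for the differences in zinc effect from SPF mice. With library totals only they became 1 and 1 for germ-free against antibiotics on Milli-Q and zinc water, 0 for zinc after antibiotics and 1 on average; totals without the Defa genes, chosen after seeing the data, gave 0 and 0 for the latter. For zinc after antibiotics, size factors of the DESeq2 type gave 1, DESeq2 1 and limma-voom 0. Limma-voom gave 3 for germ-free against antibiotics on Milli-Q water, 1 for zinc in germ-free mice, 0 on average and 1 for each difference in zinc effect from SPF mice. A fit of only the groups compared gave 1 for germ-free against SPF on zinc water. The shares of all genes called with no filter are not reported here. The causes were not tested.

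Log2 fold changes of the context and zinc comparisons that turned sign were none of them called. With library totals they were Reg4 after antibiotics on zinc water (0.08), Reg1 (-0.50) and Reg3a (-0.93) in germ-free against SPF mice on Milli-Q water, Reg3b in germ-free against antibiotics mice on Milli-Q water (-0.08), and Reg4 for zinc in SPF mice (-0.23) and on average (-0.08). Totals without the Defa genes gave -0.15 and -0.59 for that Reg1 and Reg3a comparison, and -0.08 and -0.06 for that of Reg4. Limma-voom gave -0.78 for Reg3a in germ-free against SPF mice on Milli-Q water and -0.39 for Reg1 with zinc in germ-free mice. No filter gave -0.01 for that Reg3a comparison and -0.00 for Reg4 with zinc in SPF mice. Differences in zinc effect are not in this list. Among them, library totals turned Reg3b (0.20) and Reg3g (0.20) between germ-free and antibiotics mice. They also turned Reg4 (0.12) between germ-free and SPF mice.

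For ratios to Reg3g on 1 water alone, the smallest exact permutation p possible before adjustment was 0.0286, and 0.1 for germ-free mice on Milli-Q water. Milli-Q water alone gave 3.19, 2.76 and 4.30 for Reg1, Reg3a and Reg4 after antibiotics, and -1.40 and 4.36 for Reg3b and Reg4 in germ-free mice. Zinc water alone gave 0.34, 1.29 and 2.77, and -1.27 and 2.36, with -0.10 for Reg1 in germ-free mice. With Reg3b as the reference, Reg1 and Reg3a reached 2.91 and 2.69 in germ-free mice.

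The replicate numbers were checked for pairing: correlations of the deviations of same-numbered libraries were -0.166 to 0.229, with no pair of groups above 0.1 throughout, so the libraries share only a number. With the number as a block, 1 member was called for zinc after antibiotics, where Reg3g missed the threshold (adjusted p 0.0504 by edgeR). On average 1 was called, and Reg3b missed the threshold (0.0676). The ratios were 1.72, 1.94 and 3.73 after antibiotics and -1.37 and 3.42 in germ-free mice, where the smallest p possible is 0.0312 before adjustment. The block changed no other count of members called by over 1.5 times.

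Leaving out each library gave 1 to 3 members called for germ-free against SPF on zinc water, 0 to 2, 0 to 1 and 0 to 3 for zinc after antibiotics, in germ-free mice and on average. Log2 fold changes ranged from -0.53 to 0.03 and -0.31 to 0.09 for Reg4 after antibiotics on Milli-Q and zinc water, -0.15 to 0.93 and -2.01 to 0.57 for Reg1 and Reg3a in germ-free against SPF mice on Milli-Q water, and -1.10 to 0.15 for Reg1 on zinc water. They were -0.29 to 2.29 and -0.00 to 1.66 for Reg3a in germ-free against antibiotics mice, -1.23 to 0.07 and -0.22 to 0.34 for Reg3b and Reg4 with zinc in SPF mice, -0.15 to 1.26 for Reg1 with zinc after antibiotics and -0.06 to 0.15 for Reg4 on average. Ratios were 1.61 to 2.28 for Reg3a and -0.94 to -0.53 for Reg3b after antibiotics, and 1.14 to 2.11 for Reg1 in germ-free mice.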
